A study of Saccharomyces cerevisiae with 12 samples.

Results

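The mSUTs are one class of non-coding transcripts of the budding yeast Saccharomyces cerevisiae, taken here as all 746 features typed mSUT among the 12026 features of a table of total RNA read densities. The table also holds 925 CUTs, 847 SUTs, 1798 XUTs, 706 MUTs, 809 dubious open reading frames and 5798 genes. The mSUTs carry identifiers between SUT848 and SUT2734, and the sources used here do not spell out the letter m. The study, whose title concerns the effect of the anticancer drug 5-fluorouracil (FU) on cell cycle regulators and long non-coding RNAs, profiled synchronized cells in 6 groups of 2 biological replicates. Wild-type cells given FU (titled WT+FU), rrp6-delta cells that lack the RRP6 gene and carry no FU label, and wild-type cells (WT) with no FU label were each collected 40 min and 100 min after synchronization. The drug dose, the time at which it was added, the strain background and the way of synchronizing appear neither in the labels nor in the table. Libraries were strand-specific, made from rRNA-depleted total RNA and read in pairs of 50 nt. Nothing but the deletion or the drug is named as differing from WT at the same time point, and the labels do not say how many clones of the deletion were used.

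Rrp6 is a nuclear 3′ to 5′ exonuclease that works with the RNA exosome, the complex that trims or destroys RNAs from their 3′ ends. Yeast RNA polymerase II transcribes much of the genome outside and opposite to coding genes, and the Nrd1-Nab3-Sen1 complex ends many of these short transcripts and hands them to the TRAMP polyadenylation complex and the nuclear exosome. The classes are named for how the RNAs were found: cryptic unstable transcripts (CUTs) appear when nuclear decay is disabled, stable unannotated transcripts (SUTs) are seen in normal cells, Xrn1-sensitive transcripts (XUTs) appear without the cytoplasmic exonuclease Xrn1, and meiotic unannotated transcripts (MUTs) were found during meiosis. FU is a uracil analogue that is built into RNA and blocks thymidylate synthesis, and the yeast RNA exosome has been linked to tolerance of the drug.

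The 6 sequences that follow are of mSUTs with large rises in rrp6-delta that are described below. They were chosen by their values, and the counts for the class do not rest on them. Of the 6, 5 are short, lie opposite the body of a coding gene and had few or no reads in WT, and 1 starts in the tail of a snoRNA gene. The sequences are given 5′ to 3′ in the RNA sense with T for U, from the S288C R64 genome. Capitals mark the Nrd1 motifs GTAA and GTAG and the Nab3 motif TCTTG, of which TCTTG is in none of the 6.
SUT2166: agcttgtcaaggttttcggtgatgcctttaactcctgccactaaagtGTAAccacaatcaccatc
SUT1334: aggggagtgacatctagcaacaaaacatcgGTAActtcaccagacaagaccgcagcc
SUT1882: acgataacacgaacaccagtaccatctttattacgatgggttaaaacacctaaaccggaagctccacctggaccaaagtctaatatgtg
SUT1629: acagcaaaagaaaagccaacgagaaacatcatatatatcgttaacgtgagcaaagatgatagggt
SUT1372: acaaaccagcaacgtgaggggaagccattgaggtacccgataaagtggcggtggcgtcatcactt
SUT2711: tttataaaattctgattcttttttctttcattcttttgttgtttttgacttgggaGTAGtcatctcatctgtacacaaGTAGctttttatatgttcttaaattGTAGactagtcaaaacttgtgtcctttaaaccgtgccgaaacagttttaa

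SUT2166 (chr13:134717-134781, minus strand, 65 nt) lies opposite bases 1243 to 1307 of the 1755-nt gene DAK1, which encodes a dihydroxyacetone kinase. SUT1334 (chr5:95837-95893, minus strand, 57 nt) lies opposite bases 1194 to 1250 of the 1935-nt ECM10, a mitochondrial Hsp70-family gene. SUT1882 (chr11:102168-102256, minus strand, 89 nt) is opposite bases 1498 to 1586 of the 6156-nt FAS1, which encodes the beta subunit of fatty acid synthase. SUT1629 (chr7:923291-923355, plus strand, 65 nt) is opposite bases 1108 to 1172 of the 1830-nt GPI1, a gene of GPI-anchor synthesis, and SUT1372 (chr5:40369-40433, plus strand, 65 nt) is opposite bases 1521 to 1585 of the 1908-nt PRB1, which encodes vacuolar proteinase B. SUT2711 (chr16:821883-822035, plus strand, 153 nt) begins inside the last 21 nt of SNR45, a box C/D snoRNA gene at 821732 to 821903, and runs 132 nt past its end, upstream of the asparagine synthetase gene ASN1 at 822620.

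SUT2166 and SUT1334 hold 1 GTAA each, SUT2711 holds 3 GTAG, and the other 3 sequences hold neither motif. Over all genomic windows of the same length, GTAA or GTAG is in 35.5% of 65-base windows, 31.8% of 57-base windows and 64.4% of 153-base windows of the nuclear genome, counting the windows of each strand. Among all mSUTs, 73.1% hold at least 1 GTAA or GTAG and 44.5% at least 1 TCTTG. Their GTAA and GTAG density was 8.64 per kb, against 7.20 per kb in the nuclear genome and 9.36 per kb in CUTs, and their TCTTG density was 1.71 per kb, against 1.72 per kb in the genome and 3.53 per kb in CUTs. Of the motifs searched in the 300 bases upstream, on both strands, TAGCCGCC, the core of the Ume6 repressor site, was before 0.938% of mSUTs, 2.83% of MUTs and 0.576% of genomic windows. CACAAA, the core of the site of the meiotic factor Ndt80, was before 23.3% of mSUTs, 31.6% of MUTs and 18.9% of genomic windows. Searching these 300 bases asks only for matching letters. The median GC content of mSUTs was 37.7%, against 38.3% for the nuclear genome.

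The mSUTs are 50 to 4065 nt long with a median of 289 nt and quartiles of 92 and 705 nt. There are 207 shorter than 100 nt and 113 longer than 1000 nt. They come from every nuclear chromosome, with the highest number, 105, on chromosome 4, and 6 come from the mitochondrial genome. For 78.4% of mSUTs the length is a multiple of 8 plus 1, as it is for 96.8% of CUTs, 96.0% of SUTs, 91.8% of MUTs and 13.1% of XUTs.

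More than any other position, mSUTs lay opposite coding genes. Of the 746, 405 (54.3%) overlapped a gene on the opposite strand by at least 10% of their own length, against 60.0% of CUTs, 53.7% of SUTs, 61.3% of XUTs and 44.5% of MUTs. Of these, 228 lay wholly inside the opposite gene. A further position was opposite Ty retrotransposons, the mobile elements of yeast: 88 mSUTs (11.8%) were antisense to a Ty element, against 0% of CUTs, 0% of SUTs, 2.45% of XUTs and 0.992% of MUTs. Long terminal repeats (LTRs), which flank Ty elements and also stand alone, held 65, and 140 mSUTs lay on one or the other. Only 60 (8.04%) started within 300 nt of the start of a gene that runs the other way, against 28.5% of CUTs, 30.5% of SUTs, 21.9% of XUTs and 19.1% of MUTs.

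On their own strand 182 mSUTs shared at least 10% of their length with an XUT, 8 with a gene, 2 with a CUT and 1 with a SUT. Reads in a shared stretch count for both features, so their values cannot be told apart there. Introns hold SUT2369 (of DBP2), SUT1036 (of RIM1) and SUT1588 (of ERV1), and SUT1955 lies in the coding sequence of NUP100. Another 22 lie within 100 nt of a gene on the same strand, 15 before a gene start and 8 past a gene end, with 1 counted in both. Copies of Ty, LTR and ribosomal DNA sequences are nearly identical, and how reads that fit several copies were treated is not given, so mSUTs on them have uncertain levels. There were 412 mSUTs that shared no nucleotide with a feature on their strand and lay on no Ty, LTR or rRNA sequence, called free-standing from here on.

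The values are read densities, reads divided by feature length and scaled by 1 factor per library so that gene reads have the same total of 14370740 in every library. The 12 libraries held 20102931 to 27498217 reads over all features, of which 33085 to 122529 fell in mSUTs. The depth per mSUT was low. The median mSUT had 6 and 8 reads in the WT+FU libraries at 40 min, 5 and 5 at 100 min, 24 and 24 in rrp6-delta at 40 min, 20 and 26 at 100 min, and 4 and 3, then 2 and 3, in WT at the same times. In total 13 mSUTs had 0 reads in every library and 98 had fewer than 10 over all 12. RRP6 itself had densities of 0.0675 and 0.0781 in rrp6-delta at 40 min, against 1.30 and 1.07 in WT, and of 0.0507 and 0.0696 at 100 min, against 0.951 and 0.868 in WT, so the libraries fit their genotype labels.

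Most mSUTs were denser in rrp6-delta than in WT, and few were less dense. At 40 min 466 mSUTs were called higher and 3 lower, and at 100 min 478 were called higher and 3 lower. A call is an adjusted p under 0.05 from limma on log2(density + 0.0120173), with Benjamini-Hochberg adjustment over 11485 features. These counts are of the 625 mSUTs that reached 0.0120173 in at least 2 libraries. Of those, 128 did so only through rrp6-delta libraries and had to be higher there. Over all features tested, 54.2% were called higher and 2.85% lower at 40 min, and 57.1% higher and 2.8% lower at 100 min. Among tested mSUTs 74.6% and 76.5% were called higher at the 2 times, against 96.3% and 95.7% of CUTs, 76.6% and 84.8% of SUTs, 81.1% and 84.2% of XUTs, 81.1% and 83.7% of MUTs and 32.3% and 34.5% of genes. In all, 417 mSUTs were called higher at both times and 1, SUT2593, was called lower at both. The share of all features called at both times is not given here, and the 417 may include some of the 128 that had to be higher. In bulk RNA, fewer cells that hold a transcript and less of it per cell cannot be told apart.

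The median mSUT had densities of 0.0566 and 0.0567 in the rrp6-delta libraries at 40 min, against 0.0102 and 0.0101 in WT. At 100 min it had 0.0465 and 0.0559 in rrp6-delta, against 0.00723 and 0.00775 in WT. Every rrp6-delta median thus lay above every WT median. Over all 746 mSUTs the median log2 difference was 1.34 at 40 min and 1.33 at 100 min, and over the 625 tested it was 1.55 and 1.62. Genes had a median log2 difference of 0.45 at each time on this scale, so that the mSUT median exceeded the gene median by 1.10 and 1.17 over tested features. The mSUTs with 0 reads numbered 52 and 53 in rrp6-delta at 40 min, against 188 and 208 in WT, and 64 and 68 at 100 min, against 230 and 213 in WT.

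**Figure D1:**
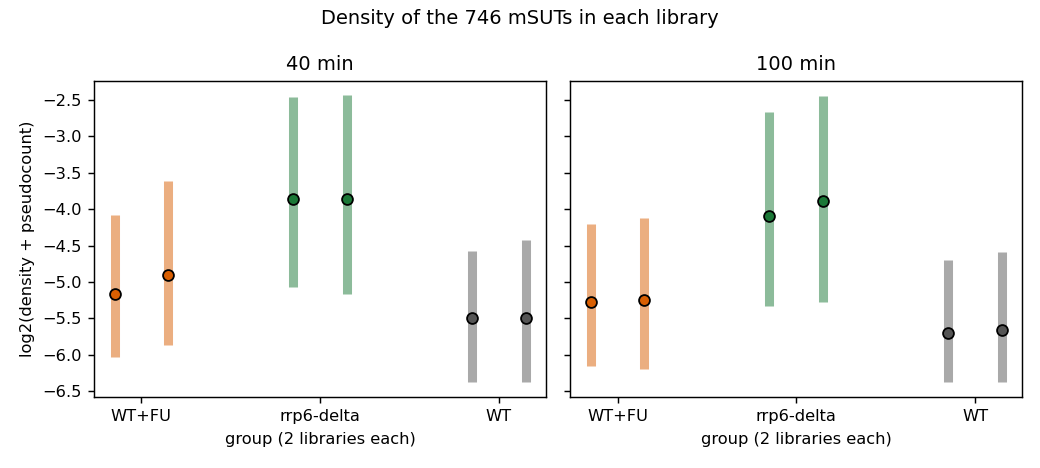
Level of the 746 mSUTs in each of the 12 libraries as log2(read density + 0.0120173), with the 40 min libraries in one panel and the 100 min libraries in the other; the point is the median and the bar spans the quartiles. The rrp6-delta medians lie between -4.10 and -3.86, above the WT+FU medians of -5.27 to -4.90 and the WT medians of -5.70 to -5.49.

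Libraries were also scaled by the median of ratios over genes with reads in every library, instead of by the total of gene reads. In this way 367 mSUTs were called higher in rrp6-delta at 40 min and 386 at 100 min, with 7 and 9 lower. The share of all features called with this scaling is not given here, so these counts have no background beside them. The mSUT median exceeded the gene median by 1.27 and 1.32 with this scaling. Of the 469 mSUTs called at 40 min on the deposited scale, 370 were also called in this way, and so were 389 of the 481 called at 100 min. Among the 412 free-standing mSUTs, of which 349 were tested, 260 were called higher at 40 min and 258 at 100 min on the deposited scale. These were 74.5% and 73.9% of those tested, against 54.2% and 57.1% over all features tested.

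**Figure D2:**
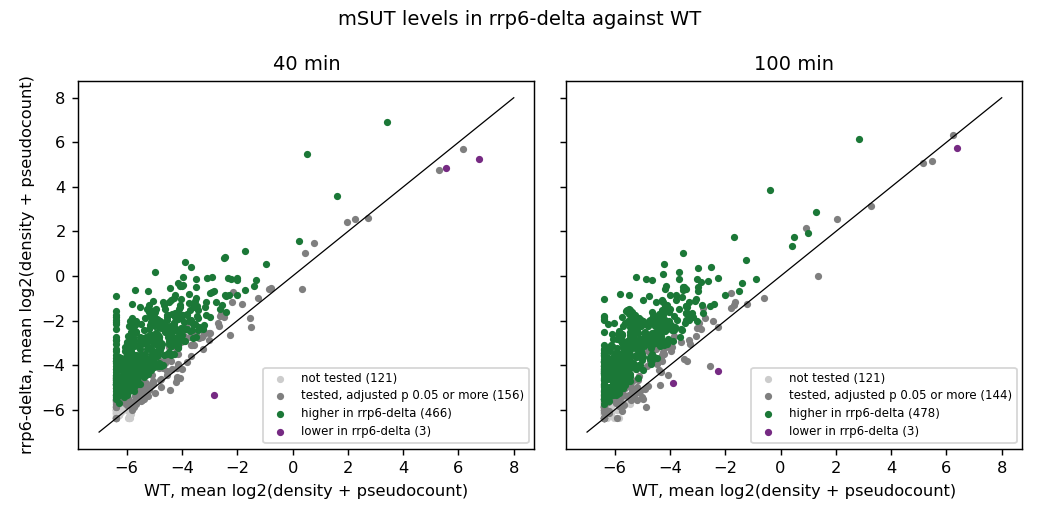
Mean log2(read density + 0.0120173) of each mSUT over the 2 rrp6-delta libraries (vertical axis) against the mean over the 2 WT libraries (horizontal axis), at 40 min and 100 min, with the line of equal density. At 40 min 466 mSUTs are marked higher, 3 lower, 156 tested and not called, and 121 not tested; at 100 min the counts are 478, 3, 144 and 121.

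The rises with the largest log2 difference were of short mSUTs, several of them inside the body of a coding gene on the opposite strand. SUT2166, opposite DAK1, had densities of 0.427 and 0.637 in rrp6-delta at 40 min and 0 and 0 in WT. At 100 min it had 0.50 and 0.638 in rrp6-delta and 0 and 0.0141 in WT, where the last value is 1 read. No WT library reached the lowest rrp6-delta value, and the log2 difference was 5.47 ± 0.55 (SE, adjusted p = 7.23e-05) at 40 min and 5.03 ± 0.55 (adjusted p = 9.12e-05) at 100 min. Taking 3 reads over the WT pair as the most that a count of 0 allows, SUT2166 was at least 25.8-fold higher at 40 min. DAK1 on the other strand was not called at either time, with log2 differences of -0.41 ± 0.39 (adjusted p = 0.391) and -0.57 ± 0.39 (adjusted p = 0.228) for rrp6-delta against WT, although with median-of-ratios scaling it was called lower, with adjusted p of 0.0454 and 0.0199.

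SUT1334, opposite ECM10, had densities of 1.06 and 1.17 in rrp6-delta at 40 min, against 0 and 0.0702 in WT, and of 0.856 and 1.07 at 100 min, against 0 and 0.0483 in WT. The 2 rrp6-delta libraries held 85 and 93 reads of it at 40 min, and WT held 0 and 4. Its log2 difference was 5.16 ± 0.93 (adjusted p = 0.00142) and 5.17 ± 0.93 (adjusted p = 0.00127), and ECM10 was not called at either time.

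SUT1882, opposite FAS1, separated the groups as well but varied between the mutant replicates, with densities of 0.376 and 1.04 in rrp6-delta at 40 min, against 0.0182 and 0 in WT, and of 0.183 and 0.624 at 100 min, against 0.0109 and 0.0103 in WT. Its log2 difference was 5.07 ± 0.68 (adjusted p = 0.000291) at 40 min and 3.96 ± 0.68 (adjusted p = 0.000954) at 100 min. By reads it was 70.5-fold higher at 40 min, with a 95% counting interval of 19.2 to 587 that covers counting error only. FAS1 itself, on the other strand, fell to 2.69 and 1.92 in rrp6-delta at 40 min, against 8.47 and 4.47 in WT, and to 4.80 and 4.67 at 100 min, against 10.5 and 11.8 in WT. The log2 differences of FAS1 were -1.43 ± 0.33 (adjusted p = 0.00483) and -1.23 ± 0.33 (adjusted p = 0.00976).

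SUT1629, opposite GPI1, had densities of 0.372 and 0.330 in rrp6-delta at 40 min, against 0.0124 and 0.0154 in WT. At 100 min it had 0.359 and 0.617 in rrp6-delta and 0 and 0 in WT. The log2 differences were 3.81 ± 0.30 (adjusted p = 3.19e-05) and 5.33 ± 0.30 (adjusted p = 9.01e-06), and at 100 min SUT1629 was at least 22.4-fold higher by reads. SUT1372 lies inside XUT0258, with which it shares its reads, and opposite PRB1. It had densities of 1.43 and 1.69 in rrp6-delta at 40 min, against 0.0498 and 0.0615 in WT, and of 1.40 and 1.46 at 100 min, against 0.0600 and 0.0283 in WT. These gave log2 differences of 4.54 ± 0.43 (adjusted p = 5.64e-05) and 4.74 ± 0.43 (adjusted p = 4.12e-05), and neither GPI1 nor PRB1 was called.

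**Figure D3:**
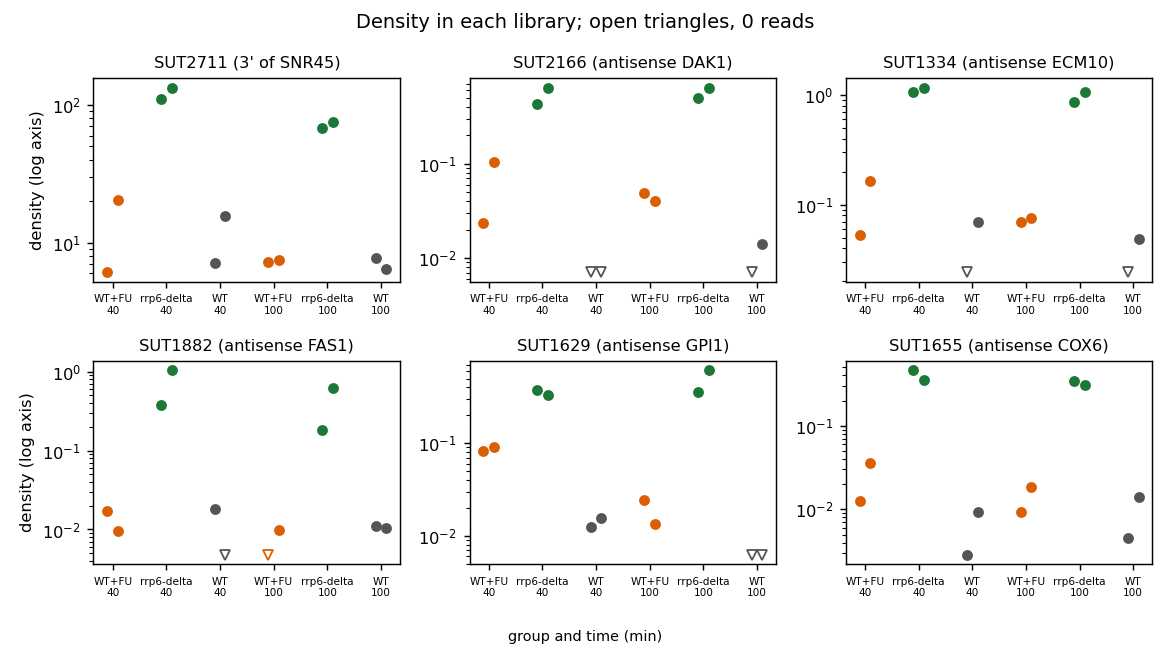
Read density, on a log axis, of SUT2711, SUT2166, SUT1334, SUT1882, SUT1629 and SUT1655 in each library of WT+FU, rrp6-delta and WT at 40 and 100 min; an open triangle marks 0 reads. In each panel the 4 rrp6-delta points stand above all WT+FU and WT points, from 0.183 and 0.330 upward for SUT1882 and SUT1629 and from 68.1 upward for SUT2711.

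Other short mSUTs with large rises for rrp6-delta against WT at 40 min were SUT2337 and SUT1980. SUT2337, which starts 142 nt from the start of VAC7 and runs away from it, had a log2 difference of 4.82 ± 0.72 (adjusted p = 0.00052). SUT1980 had one of 4.63 ± 0.50 (adjusted p = 0.000102). SUT1589, a 64-nt mSUT that overlaps no gene on either strand, rose by 4.56 ± 0.74 at 40 min and 4.61 ± 0.74 at 100 min. It had 0.589 and 0.647 in rrp6-delta at 40 min, against 0 and 0.0469 in WT. SUT1735 starts 176 nt from the start of the signal peptidase gene SEC11 and lies partly opposite the gene YIR021W-A. It rose by 4.64 ± 0.85 at 100 min (adjusted p = 0.00135), and SUT863, which shares reads with XUT0951, rose by 4.71 ± 0.28 (adjusted p = 9.97e-06). At 100 min SUT1570, which ends 150 nt before CDC20, the gene of an activator of the anaphase-promoting complex, rose by 4.54 ± 0.37 (adjusted p = 2.7e-05), with 2.26 and 1.83 in rrp6-delta and 0.0548 and 0.103 in WT.

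Longer mSUTs gave the firmest counts. Those described, 8 in all, were chosen after their values were seen as the free-standing mSUTs with the most reads among the 220 that were called higher in rrp6-delta at both times and did not lie next to a gene on their strand. SUT1655 (849 nt, chr8:209358-210206, minus strand) covers the whole of COX6, which encodes a subunit of cytochrome c oxidase, from the other strand. It held 553 and 416 reads in rrp6-delta at 40 min, against 3 and 8 in WT, and 416 and 376 at 100 min, against 4 and 13 in WT. The log2 difference was 4.54 ± 0.39 (adjusted p = 4.16e-05) at 40 min and 4.03 ± 0.39 (adjusted p = 5.67e-05) at 100 min, and by reads it was 70.2-fold and 34.7-fold higher. COX6 was not called at either time, with log2 differences of -0.11 ± 0.26 (adjusted p = 0.741) and 0.30 ± 0.26 (adjusted p = 0.353). With median-of-ratios scaling COX6 was called lower at 40 min (adjusted p = 0.029).

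SUT1716 (1921 nt), antisense to 62.0% of MET18, a gene of cytosolic iron-sulfur protein assembly, had densities of 0.948 and 0.543 in rrp6-delta at 40 min, against 0.0303 and 0.0781 in WT. It rose by 3.56 ± 0.52 (adjusted p = 0.000453) at 40 min and by 3.22 ± 0.52 (adjusted p = 0.000705) at 100 min. MET18 also rose, by 0.73 ± 0.23 and 0.65 ± 0.23, though not with median-of-ratios scaling (adjusted p = 0.328 and 0.476). SUT1781 (2209 nt, chr10:28885-31093, minus strand), opposite MUT841, had 0.304 and 0.316 in rrp6-delta at 40 min, against 0.0220 and 0.0172 in WT, and rose by 3.35 ± 0.25 (adjusted p = 2.68e-05) and 3.20 ± 0.25 (adjusted p = 2.42e-05). The other 5 rose at 40 and 100 min by 3.4 and 3.12 for SUT2201, opposite the silencing gene ESC1, by 2.58 and 2.33 for SUT2470, opposite the tubulin folding gene CIN1, by 2.18 and 2.08 for SUT1091, opposite YDL218W, by 1.93 and 2.96 for SUT2474, opposite the alcohol acetyltransferase gene ATF1, and by 1.34 and 2.01 for SUT1161, opposite the kinetochore gene CHL4.

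SUT2711, past the snoRNA gene SNR45, was the only mSUT with a snoRNA within 1000 nt upstream on its strand and the only one of the 5 densest that was called higher. SNR45 encodes a guide for acetylation of the small ribosomal RNA. SUT2711 had densities of 111 and 134 in rrp6-delta at 40 min, against 7.11 and 15.6 in WT, and of 68.1 and 75.1 at 100 min, against 7.79 and 6.43 in WT. The log2 difference was 3.53 ± 0.51 (adjusted p = 0.00044) at 40 min and 3.33 ± 0.51 (adjusted p = 0.00054) at 100 min, 11.2-fold and 10.1-fold by reads. SNR45 itself had 102 and 122 in rrp6-delta at 40 min, against 28.8 and 58.0 in WT, a log2 difference of 1.45 ± 0.48 (adjusted p = 0.0278), which median-of-ratios scaling did not call (adjusted p = 0.226). In reads, SUT2711 held 23901 and 28619 in rrp6-delta at 40 min, close to the 24691 and 29267 of SNR45. In WT it held 1344 and 2383, against 6122 and 9969 of SNR45. The 21 shared nt and read pairs that span the junction count for both features.

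SUT2110 (chr12:460673-460769, plus strand, 97 nt) lies in the ribosomal DNA, in XUT0649, and had densities of 35.3 and 54.9 in rrp6-delta at 40 min, against 1.34 and 1.49 in WT, and of 8.97 and 24.0 at 100 min, against 0.854 and 0.653 in WT. It rose by 4.95 ± 0.48 (adjusted p = 6.38e-05) and 4.27 ± 0.48 (adjusted p = 0.000105). The intron of DBP2, which encodes a DEAD-box RNA helicase, holds SUT2369 (657 nt), which had 10.5 and 14.0 in rrp6-delta at 40 min, against 3.28 and 2.81 in WT. SUT2369 rose by 1.99 ± 0.20 (adjusted p = 6.89e-05) and 1.62 ± 0.20 (adjusted p = 0.000152), and DBP2, whose reads include those of SUT2369, by 1.87 ± 0.18 and 1.63 ± 0.18. Of the mSUTs in other genes, SUT1588 rose at 100 min by 0.93 ± 0.26 (adjusted p = 0.0122, but 0.0715 with median-of-ratios scaling), while SUT1036 and SUT1955 were not called at either time, though with median-of-ratios scaling SUT1036 was called lower (adjusted p = 0.0193 and 0.0137). SUT1036 had 6.02 and 6.18 in rrp6-delta at 40 min, against 7.28 and 6.03 in WT. The mSUTs in genes were chosen for description after their values were seen.

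The falls in rrp6-delta came from a handful of mSUTs, of which 1 fell at both times. SUT2593 lies 5 nt before RPS6A, a ribosomal protein gene, on the same strand, and was the densest mSUT. It had densities of 42.3 and 34.9 in rrp6-delta at 40 min, against 96.0 and 120 in WT, with a log2 difference of -1.48 ± 0.24 (adjusted p = 0.000863), and of 56.4 and 50.1 at 100 min, against 95.5 and 72.9 in WT, with -0.65 ± 0.24 (adjusted p = 0.0432). RPS6A next to it had log2 differences of -1.38 ± 0.22 and -0.61 ± 0.22. SUT1236, 7 nt before RPL13A, fell by 0.67 ± 0.19 at 40 min (adjusted p = 0.0129), with 29.4 and 29.1 in rrp6-delta and 43.0 and 50.4 in WT, and RPL13A fell by 0.68 ± 0.19. Such neighbours may lie in one transcript with the gene, which the densities cannot tell apart.

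SUT2460, antisense to FAA1, a long-chain acyl-CoA synthetase gene, held 46 and 31 reads in rrp6-delta at 40 min, against 643 and 133 in WT, and fell by 2.49 ± 0.58 (adjusted p = 0.00554). FAA1 rose by 1.37 ± 0.37 (adjusted p = 0.0112). At 100 min the other falls were of SUT1658, opposite the Pho85 cyclin gene PCL5, with a log2 difference of -0.89 ± 0.32 (adjusted p = 0.0365), and of SUT1068, with -2.00 ± 0.76 (adjusted p = 0.0465). SUT1658 shares reads with XUT1294, and SUT1068 with XUT0109. SUT1068 was called higher at 40 min, by 2.00 ± 0.76 (adjusted p = 0.0491), and the test of the difference between the times, -4.0 ± 1.08, was not called (adjusted p = 0.381). Its 2 WT libraries had 0.194 and 0.203 at 100 min and 0.0238 and 0 at 40 min.

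The share called higher in rrp6-delta is given by position as a description, beside the 54.2% at 40 min and 57.1% at 100 min over all features tested. Of the 228 mSUTs wholly inside an opposite gene, 160 were called higher at 40 min and 153 at 100 min, or 78.0% and 74.6% of the 205 tested. Their median log2 difference over all 228 was 1.80 and 1.73. Of the 405 antisense to a gene 363 were tested, and 283 and 284 were called higher, which is 78.0% and 78.2% of those tested. Of the 341 that were not antisense 262 were tested, and 183 and 194, or 69.8% and 74.0%, were called higher. Those starting within 300 nt of a gene start and running away from it gave 44 and 43 of 60 (81.5% and 79.6% of the 54 tested), with medians of 1.61 and 1.57. Those sharing a stretch with an XUT gave 144 and 153 of 182 (80.9% and 86.0% of the 178 tested), with 1.57 and 1.73. At the other end, 26 and 27 of the 88 mSUTs antisense to a Ty element were called higher, with medians of 0.61 and 0.55. In that group 44 of 88 were tested, of which 59.1% and 61.4% were called higher, and their median density was 0.00837 in rrp6-delta at 40 min and 0 in WT. None of the 6 mitochondrial mSUTs was called at either time, and their medians were 0.37 and 0.19. The positions used here were chosen after values were seen, and mSUTs can fall in several.

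**Figure D4:**
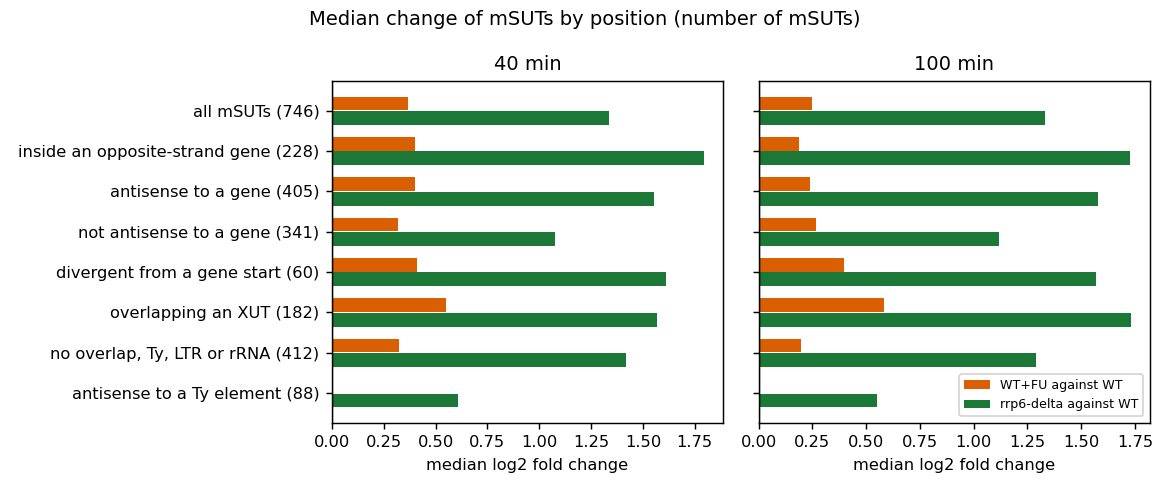
Median log2 difference of all mSUTs at each of the nuclear positions drawn, with no filter on low values, for WT+FU against WT and rrp6-delta against WT at 40 and 100 min; bars start at 0. The rrp6-delta bars reach 1.80 and 1.73 for mSUTs inside an opposite gene and 1.57 and 1.73 for those sharing a stretch with an XUT, and of the positions drawn are shortest for those antisense to a Ty element (0.61 and 0.55), and the WT+FU bars are longest for mSUTs sharing a stretch with an XUT (0.55 and 0.58).

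The shortest mSUTs had a higher median than the longest but a smaller share of calls. For the 207 mSUTs under 100 nt the median log2 difference was 1.52 at 40 min and 1.5 at 100 min. Of these 171 were tested, and 109 and 111 were called higher, or 63.7% and 64.9% of those tested. For the 188 of 700 nt or longer the median was 1.09 and 1.22. Of these 159 were tested, and 126 and 131 were called higher, or 79.2% and 82.4%. Over all features tested 54.2% and 57.1% were called higher. Short features hold fewer reads at the same density, and the pseudocount sets how far a low value can move. Of the 545 mSUTs with a GTAA or GTAG 463 were tested, and 360 and 370 were called higher, or 77.8% and 79.9% of those tested. Of the 201 with neither 162 were tested, and 106 and 108 were called higher, or 65.4% and 66.7%. The medians over all mSUTs were 1.33 and 1.33 with a motif and 1.37 and 1.27 without. A longer mSUT is more likely to hold a motif, and length was not held equal here, so motif and length cannot be told apart.

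Genes opposite the mSUTs called higher were themselves called at shares near those of all genes. Of 263 such genes, 28.1% were called higher and 4.18% lower in rrp6-delta at 40 min, against 32.3% and 5.26% of all genes. At 100 min the shares were 31.6% and 3.8%, against 34.5% and 5.15% of all genes. Their median log2 differences were 0.46 and 0.48, against 0.45 and 0.45 over all genes.

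FU moved few mSUTs past the threshold. At 40 min 21 mSUTs were called higher and 0 lower in WT+FU against WT, and at 100 min 9 were called higher and 1 lower. Unadjusted limma p under 0.05 gave 162 and 8 of the 625 tested mSUTs at 40 min, and 135 and 10 at 100 min. Over all 11485 features tested it gave 3065 higher and 165 lower at 40 min, and 2335 and 202 at 100 min. Of tested mSUTs 3.36% were called higher and 0% lower at 40 min, against 2.54% and 0.235% over all features, and 1.44% and 0.16% at 100 min, against 1.74% and 0.409%, so that mSUTs stood near the background. The median mSUT had densities of 0.0160 and 0.0215 in WT+FU at 40 min, against 0.0102 and 0.0101 in WT, and of 0.0139 and 0.0142 at 100 min, against 0.00723 and 0.00775 in WT. Both WT+FU medians were above both WT medians at each time, yet the median log2 difference over tested mSUTs, 0.45 and 0.37, was close to that of genes, 0.37 and 0.30.

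The calls at 40 min hung on the scaling and on single libraries. With median-of-ratios scaling 0 of the mSUTs were called at 40 min in either direction, and at 100 min 2 were, SUT1517 and SUT1290. With limma-voom on the recovered reads 5 were called higher and 0 lower at 40 min. Without WT+FU replicate 1 at 40 min 64 were called higher, and without WT+FU replicate 2, WT replicate 1 or WT replicate 2 at 40 min the counts were 2, 1 and 11. Leaving out any 1 of the other 8 libraries, which enter only through the shared estimate of spread, gave 0 to 3. At 100 min the 9 higher calls became 0 without WT+FU replicate 1, WT+FU replicate 2 or WT replicate 2 of that time, 2 without WT replicate 1, 2 or 3 without an rrp6-delta library, and 17 or 21 without a WT or WT+FU library of 40 min. In the second replicates at 40 min snoRNAs took 20.9% of reads in WT+FU and 20.2% in WT, against 10.1% and 11.7% in the first replicates. The part of this difference in the calls was not tested.

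The 5 calls at 40 min that limma-voom shared were chosen for description after the values were seen. SUT2571 (1905 nt, chr16:17261-19165, minus strand), which shares reads with XUT1737, had densities of 0.0430 and 0.0585 in WT+FU, against 0.00552 and 0.00630 in WT, a log2 difference of 1.80 ± 0.28 (adjusted p = 0.0288). SUT1781, the 2209-nt mSUT described above, had 0.0807 and 0.0682 in WT+FU, against 0.0220 and 0.0172 in WT, a log2 difference of 1.45 ± 0.25 (adjusted p = 0.0377). By reads these were 8.57-fold and 3.77-fold higher, and both WT+FU libraries stood above both WT libraries in each case. SUT1357, opposite RTT105, a regulator of Ty1 transposition, had 0.129 and 0.157 in WT+FU, against 0.0404 and 0.0270 in WT (1.77 ± 0.27, adjusted p = 0.0266). SUT1072, opposite the mitochondrial ribosomal protein gene IMG1, rose by 1.48 ± 0.23 (adjusted p = 0.0288) and SUT2470, opposite CIN1, by 1.48 ± 0.26 (adjusted p = 0.0378). None of the 5 was called with median-of-ratios scaling, where the adjusted p values of SUT1357, SUT1781, SUT2470, SUT2571 and SUT1072 were 0.106, 0.124, 0.167, 0.106 and 0.11.

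The 8 largest rises at 40 min included mSUTs with few reads. SUT2196, which shares reads with XUT1577, had densities of 0.304 and 0.627 in WT+FU and 0.0413 and 0.0657 in WT (log2 difference 2.80 ± 0.60, adjusted p = 0.0471). SUT2110 in the ribosomal DNA had 6.30 and 12.3 in WT+FU and 1.34 and 1.49 in WT (2.63 ± 0.48, adjusted p = 0.0393), and SUT863 had 0.262 and 0.152 in WT+FU and 0.0335 and 0.0345 in WT (2.21 ± 0.28, adjusted p = 0.0226). SUT1629, opposite GPI1, rose by 1.93 ± 0.30 (adjusted p = 0.0288), on 7 reads in each WT+FU library and 1 in each WT library. SUT1467, SUT1174, SUT2404 and SUT1651 were called on 8, 7, 7 and 5 reads over the WT+FU pair, with 0 in WT, and were at least 2.39-, 2.09-, 2.09- and 1.49-fold higher. Of these, SUT1174 shares reads with XUT1095, and SUT1651 with the dubious open reading frame YHR032C-A. SUT2369 in the DBP2 intron had 6.04 and 6.19 in WT+FU and 3.28 and 2.81 in WT (1.01 ± 0.20, adjusted p = 0.0417), as did DBP2, with 8.56 and 10.1 in WT+FU and 4.58 and 4.56 in WT (1.02 ± 0.18, adjusted p = 0.0378).

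At 100 min the largest rise in WT+FU was of SUT1517 (105 nt, chr7:712559-712663, minus strand), which overlaps no other feature. It held 16 and 20 reads in WT+FU, against 2 and 0 in WT, with a log2 difference of 3.0 ± 0.44 (adjusted p = 0.0115). The ratio of reads scaled by library was 15.8, with a 95% counting interval of 4.07 to 135. SUT1395, opposite the glycerol-3-phosphatase gene HOR2, had densities of 0.225 and 0.278 in WT+FU and 0.0352 and 0.0663 in WT (2.11 ± 0.41, adjusted p = 0.035). SUT1384, opposite the transcription factor gene ACA1, had 0.109 and 0.111 in WT+FU and 0.0171 and 0.0267 in WT (1.86 ± 0.35, adjusted p = 0.0302), and SUT1823 had 0.112 and 0.118 in WT+FU and 0.0183 and 0.0321 in WT (1.79 ± 0.36, adjusted p = 0.0387). These 4 were also called by limma-voom, and none but SUT1517 with median-of-ratios scaling. SUT1395 shares its reads with XUT0281, SUT1384 shares reads with XUT0273 and XUT0274, and SUT1823 with XUT1412.

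Before gene starts, SUT1570 and SUT871 were called higher in WT+FU at both times. SUT1570, upstream of CDC20, had densities of 0.393 and 0.254 in WT+FU at 100 min and 0.0548 and 0.103 in WT, with log2 differences of 1.67 ± 0.37 (adjusted p = 0.0493) at 40 min and 1.90 ± 0.37 (adjusted p = 0.035) at 100 min. SUT871, 59 nt before FUN14, rose by 1.32 ± 0.27 (adjusted p = 0.0441) and 1.30 ± 0.27 (adjusted p = 0.0448). At 100 min SUT859 rose by 1.76 ± 0.29 (adjusted p = 0.0184) and SUT1274 by 1.30 ± 0.28 (adjusted p = 0.0494). None of these 4 was called with median-of-ratios scaling. The ninth rise was of SUT1529.

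Set directly against each other, FU-treated wild-type cells held less of most mSUTs than rrp6-delta cells. At 40 min 329 mSUTs were called lower and 1 higher in WT+FU than in rrp6-delta, and at 100 min 376 lower and 1 higher. Of the 625 tested mSUTs, 52.6% and 60.2% were thus lower and 0.16% higher at each time. The 128 that passed the filter only through rrp6-delta libraries are among those tested and had to be lower in WT+FU. Over all features 32.7% were lower and 2.55% higher at 40 min, and 41.3% lower and 3.34% higher at 100 min. The median log2 difference over tested mSUTs was -1.07 at 40 min and -1.19 at 100 min, against -0.07 and -0.15 over genes. Over all 746 mSUTs, with no filter, it was -0.88 and -0.99. The lower counts fell by more than 1.5 times, to 202 and 214 at 40 min without rrp6-delta replicate 2 or 1 of that time, and to 238 at 100 min without rrp6-delta replicate 2 of that time. WT+FU and rrp6-delta share their WT libraries in the comparisons above, so only this direct test compares them.

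The fall was largest at both times for SUT1882, opposite FAS1, which had 0.0170 and 0.00956 in WT+FU at 40 min, against 0.376 and 1.04 in rrp6-delta, and 0 and 0.00976 at 100 min, against 0.183 and 0.624 in rrp6-delta. Its log2 differences were -4.67 ± 0.68 (adjusted p = 0.00117) and -4.44 ± 0.68. SUT1655, opposite COX6, had 0.0125 and 0.0361 in WT+FU at 40 min, against 0.463 and 0.350 in rrp6-delta (-3.59 ± 0.39, adjusted p = 0.000433). SUT2306, opposite the autophagy gene ATG2, had 0.0126 and 0.0276 in WT+FU at 100 min, against 0.572 and 0.736 in rrp6-delta (-4.40 ± 0.37, adjusted p = 9.02e-05). In each of these the groups did not overlap. SUT1589 differed by -3.86 and -4.09 at 40 and 100 min, SUT2658, opposite the TRE1 gene, which passed the filter on its rrp6-delta libraries, by -3.64 at 40 min, and SUT1629 by -3.99 at 100 min.

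SUT2711 downstream of SNR45 had 6.09 and 20.3 in WT+FU at 40 min and 7.27 and 7.46 at 100 min, against 111 and 134, then 68.1 and 75.1, in rrp6-delta, and its WT+FU values overlapped those of WT. SUT2166 had 0.0233 and 0.105 in WT+FU at 40 min, against 0.427 and 0.637 in rrp6-delta, and SUT1334 had 0.0532 and 0.164, against 1.06 and 1.17. The 1 mSUT higher in WT+FU than in rrp6-delta at 40 min was SUT2460, opposite FAA1, with 0.203 and 0.0671, against 0.0155 and 0.0105 (2.39 ± 0.58, adjusted p = 0.0122). At 100 min it was SUT2478, opposite YOR389W, with 0.0328 and 0.0556, against 0.0102 and 0.0131 (1.22 ± 0.30, adjusted p = 0.0101).

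In WT cells 6 of the 625 tested mSUTs differed between 100 and 40 min, 3 higher and 3 lower at 100 min, where unadjusted p under 0.05 gave 24 and 61. Over all 11485 features tested 1.31% were called higher and 1.06% lower, and unadjusted p under 0.05 gave 755 and 1217. SUT1755, opposite the stress-induced repressor gene XBP1, had densities of 0.0463 and 0.0625 at 100 min, against 0.0143 and 0.0112 at 40 min (1.42 ± 0.25, adjusted p = 0.0216). SUT2046, on the strand of XUT1511, had 0.573 and 0.489 at 100 min, against 0.217 and 0.253 at 40 min (1.14 ± 0.17, adjusted p = 0.0117). The 3 falls were of SUT2330, opposite the cell wall gene SUN4, with 0.0684 and 0.0644 at 100 min and 0.213 and 0.404 at 40 min (-1.96 ± 0.29, adjusted p = 0.0115), of SUT1052 (-1.60 ± 0.29, adjusted p = 0.0261) and of SUT1414, on an LTR (-1.48 ± 0.21, adjusted p = 0.00926). Without WT replicate 1 or 2 at 100 min 0 were called higher, and 1 or 0 lower. Without WT replicate 1 at 40 min 7 were called higher and 6 lower.

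SUT1290 was the third rise, and the 1 mSUT whose FU effect was called different between the times. It lies on an LTR (99 nt, chr4:1023372-1023470, plus strand), 1051 nt from the start of PHM6, a phosphate-responsive gene that runs the other way. It had densities of 0.00802 and 0.00877 in WT+FU at 100 min, which is 1 read each, against 0.0886 and 0.0649 in WT, or 9 and 7 reads, a log2 difference of -2.11 ± 0.28 (adjusted p = 0.00735). At 40 min it had 0.0307 and 0.0344 in WT+FU, against 0.0163 and 0.0101 in WT. The WT densities at 100 min were above those at 40 min, by 1.81 ± 0.28 (adjusted p = 0.0125), and the difference of the FU effect between the times was -2.94 ± 0.39 (adjusted p = 0.0324), a call lost when any 1 library but WT+FU replicate 1 at 40 min was left out. Over all features 0.00871% were called in the positive and 0.0958% in the negative direction in this test of FU by time. In rrp6-delta SUT1290 had 0.0934 and 0.144 at 40 min and 0.0714 and 0.0568 at 100 min, and at 40 min it was 2.36 ± 0.28 above WT (adjusted p = 0.000153).

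PHM6 had densities of 0.624 and 0.659 in WT+FU at 40 min, against 1.98 and 1.58 in WT, and of 0.560 and 0.369 at 100 min, against 2.42 and 2.42 in WT. It fell by 1.45 ± 0.22 (adjusted p = 0.0266) and 2.38 ± 0.22 (adjusted p = 0.00177) in WT+FU, and by 3.16 ± 0.22 and 3.91 ± 0.22 in rrp6-delta. For rrp6-delta by time none of the 625 tested mSUTs was called in either direction, where unadjusted p under 0.05 gave 23 and 25, and limma-voom called 0 as well. Over all 11485 features tested 0.0174% were positive and 0.0609% negative, and unadjusted p under 0.05 gave 522 and 355.

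**Figure D5:**
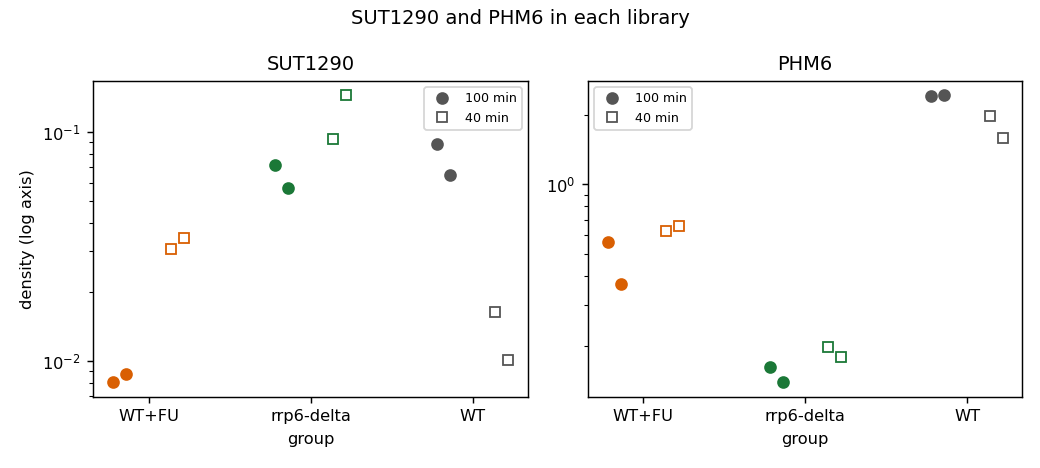
Read density of SUT1290 and of PHM6 in each library of WT+FU, rrp6-delta and WT, on log axes; filled circles are 100 min libraries and open squares 40 min libraries. SUT1290 at 100 min is at 0.00802 and 0.00877 in WT+FU and at 0.0886 and 0.0649 in WT, while at 40 min WT+FU is above WT.

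As a share of all reads, mSUTs took 0.197% and 0.200% in WT+FU at 40 min and 0.186% and 0.157% at 100 min, 0.441% and 0.446%, then 0.394% and 0.405%, in rrp6-delta, and 0.187% and 0.179%, then 0.165% and 0.155%, in WT. The 8 densest mSUTs gave 42.1% to 66.7% of these reads, and SUT2711 alone gave 14.0% to 23.4% in the rrp6-delta libraries. Relative to gene reads the share in rrp6-delta was above WT by 1.24 on the log2 scale over both times (exact permutation p = 0.0556, two-sided, the smallest that the 36 arrangements within times allow). In WT+FU it was above WT by 0.0869 (exact permutation p = 0.333). Without the 8 densest mSUTs the values were 0.52 for WT+FU and 1.82 for rrp6-delta, each with the smallest p. With only mSUTs that share no nucleotide on their strand they were -0.20 for WT+FU (exact permutation p = 0.111) and 0.35 for rrp6-delta (exact permutation p = 0.0556). The sign in WT+FU thus changed with the mSUTs that were summed, and the values of 0.0869 and -0.20 did not reach the smallest p.

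The mSUT with the smallest adjusted p in rrp6-delta against WT at 100 min was SUT2091 (369 nt), antisense to 11.6% of RIC1, which encodes an exchange factor of the Golgi. All its WT and WT+FU values were under the 0.0120173 of the filter, so it was tested through rrp6-delta libraries alone and had to be higher there. SUT2091 held 116 and 138 reads in rrp6-delta at 100 min and 0 and 0 in WT, and 118 and 123 at 40 min, against 2 and 2 in WT. Its log2 difference was 4.40 ± 0.23 (adjusted p = 7.89e-06) at 100 min, at least 63.1-fold by reads, and 3.85 ± 0.23 (adjusted p = 1.29e-05) at 40 min. The 5 mSUTs with the most similar mean log2 densities over the 6 groups were SUT988, opposite HSL7 (r = 0.997), SUT1362, opposite DNF1 (r = 0.997), SUT1430, opposite COS4 (r = 0.996), SUT2464, opposite PDR10 (r = 0.995), and SUT1387 (r = 0.995). Of these SUT988 and SUT1430 also reached the filter in rrp6-delta libraries alone, SUT2464 in those and 1 other library, and the coefficients describe 6 group means from shared libraries.

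The longest mSUTs were also called higher in rrp6-delta. SUT866 (4065 nt), opposite the flocculation gene FLO9, rose in rrp6-delta by 1.51 ± 0.23 at 40 min and 1.63 ± 0.23 at 100 min. SUT2493 (3329 nt), opposite WSC3, had densities of 0.0263 and 0.0253 in rrp6-delta at 40 min, against 0.00267 and 0.00330 in WT. It was tested through rrp6-delta libraries alone and had to be higher there, with log2 differences of 1.33 ± 0.16 and 1.23 ± 0.16. SUT1744 (3921 nt), opposite YIL169C, rose at 100 min alone by the threshold, by 2.49 ± 0.69 (adjusted p = 0.0122). Of the 5 densest, SUT1723, which lies 5 nt before RPS24B, and SUT1237, which lies 5 nt past RPL13A, were not called in either mutant or FU comparison, with 39.4 to 99.3 and 25.6 to 34.0 in the rrp6-delta libraries, against 65.1 to 79.8 and 31.4 to 47.2 in WT. With median-of-ratios scaling SUT1237 was called lower in rrp6-delta at 40 min (adjusted p = 0.0365).

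Among genes of RNA decay, the nuclear surveillance list (21 of 23 names found, all tested) had 16 higher (76.2%) and 1 lower in rrp6-delta at 40 min and 12 higher (57.1%) and 1 lower at 100 min, the lower one being RRP6. Of all genes tested 32.3% were called higher at 40 min and 34.5% at 100 min. NRD1, which encodes the RNA-binding subunit that recognises GTAA and GTAG as RNA, rose by 2.94 ± 0.24 and 3.0 ± 0.24, AIR2 of the TRAMP complex by 1.68 ± 0.24 and 1.66 ± 0.24, and the helicase gene SEN1 by 1.42 ± 0.20 and 1.39 ± 0.20. NAB3, whose product binds TCTTG as RNA, rose by 1.46 ± 0.36 and 1.22 ± 0.36. In WT+FU 0 of the 21 were called at either time. Of all genes tested, 1.34% were called higher and 0.454% lower in WT+FU at 40 min, and 1.94% and 0.769% at 100 min. At such shares lists of this size would hold few calls or none. The cytoplasmic decay list (14 tested of 16 names) had 6 higher (42.9%) in rrp6-delta at 40 min and 4 (28.6%) at 100 min, near the 32.3% and 34.5% of all genes. It had 0 lower, and none called in WT+FU. The meiosis and sporulation list (28 tested of 31) had 18 (64.3%) and 16 (57.1%) higher in rrp6-delta and 0 lower, among them the recombination gene REC104 by 5.27 ± 0.66 and 4.49 ± 0.66 and the kinase gene SPS1 by 3.04 ± 0.29 and 3.42 ± 0.29. In WT+FU 1 of these, SPO13, rose at 40 min (0.99 ± 0.19, adjusted p = 0.0405) and 0 at 100 min. Of the 8 cell cycle genes 2 were higher in rrp6-delta at each time, a smaller share than of all genes, and in WT+FU SIC1, which encodes an inhibitor of B-type cyclin kinase, fell by 1.66 ± 0.31 at 100 min (adjusted p = 0.0299).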

How the data were processed

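The authors deposited 1 table of read densities (a signal: reads per feature length), and per the submitters' processing notes reads were aligned with TopHat, whose version, like the settings, counting program, genome build and annotation, is not given in the sources used here. Values came back as whole reads for 100% of entries (tolerance 0.001) once multiplied by length and divided by 1 factor per library. Gene coordinates matched S288C R64 for 5757 of the 5789 genes compared, so sequences and positions were read from that build.

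Group means over all 12 libraries were fitted with limma 3.58.1 (R 4.3.3) on log2(density + 0.0120173), the 10th percentile of values above 0, which understates changes of low features. Features at or above that value in 2 libraries were kept (11485 of 12026, with 541 left out and 6 residual degrees of freedom). Differences are given with SE, and p-values were adjusted by Benjamini-Hochberg per comparison. The 2 biological replicates per group limit precision. No replicate block was used, since the labels tie the replicate numbers to no shared culture, batch or day. Python 3.11.15, pandas 2.3.3, NumPy 2.4.6, SciPy 1.17.1 and matplotlib 3.10.9 did the rest. The fit was also run on simulated data, in which only features with more reads than the median mSUT has in WT or WT+FU were changed. That run therefore does not speak for mSUTs with few reads. Counting intervals (95%) and the limit of 3 reads over a group cover counting error only.

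Named were, per comparison with WT, the 8 largest called rises and 4 largest falls with separated libraries, 4 of each in the other comparisons, the 5 densest, the 3 longest and 5 most similar mSUTs; others are marked as added. The members and lists were chosen with earlier results of these data known. Alternatives were other pseudocounts, no filter, median-of-ratios scaling, a replicate block, leaving out each library and, added after seeing the data, limma-voom on recovered reads, free-standing mSUTs and a minimum of 10 reads.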

Additional observations from a re-analysis of the deposited data

Results flagged for a closer look

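SUT1290, on an LTR of chromosome 4, stood out because its response to FU was called different at 100 min and 40 min, with a log2 difference between the effects of -2.94 ± 0.39 (adjusted p = 0.0324, limma). It held 1 and 1 reads in WT+FU at 100 min, against 9 and 7 in WT, and 4 and 4 at 40 min, against 2 and 1 in WT. The adjusted p ran from 0.0213 to 0.239 over the alternatives, and it was 0.161 and 0.209 without WT+FU replicate 1 or 2 at 100 min and 0.174 and 0.123 without WT replicate 1 or 2 at 100 min.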

How the results depend on the processing

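The rises in rrp6-delta stayed within 1.5 times the main count under every alternative run, with 367 to 488 mSUTs higher at 40 min and 386 to 505 at 100 min over the settings, and leaving out 1 library gave 386 to 481 and 380 to 488. Of the 11 mSUTs named for rrp6-delta at each time, 10 at 40 min and 8 at 100 min were called under every alternative, and of the 8 and 9 named for WT+FU none were. No named mSUT reversed. Counts that moved were as follows. Higher in WT+FU at 40 min (21): 0 with a 10 times larger pseudocount, 0 with median of ratios, 43 with a replicate block, 5 with limma-voom, and 0 to 64 leaving out 1 library; lower (0): 1 with a 0.1 times pseudocount, 2 with the block, and 0 to 1. Higher in WT+FU at 100 min (9): 4 with the larger and 30 with the smaller pseudocount, 1 with median of ratios, 21 with the block, 5 with limma-voom, and 0 to 21; lower (1): 2 with the smaller pseudocount, 2 with the block, and 0 to 2. Lower in rrp6-delta (3 and 3): 7 and 9 with median of ratios, and 2 to 4 and 0 to 6 leaving out 1 library. WT+FU above rrp6-delta (1 and 1): 2 and 2 with no filter, 0 at 100 min with the smaller pseudocount, 2 at 100 min with median of ratios, and 0 to 2 and 0 to 3 leaving out 1 library; below, 202 to 348 and 238 to 394. WT over time, higher (3): 5 with the smaller pseudocount, 5 with the block, and 0 to 7; lower (3): 15, 9 and, with limma-voom, 1, and 0 to 7. FU by time, lower (1): 0 with the larger and 2 with the smaller pseudocount, 0 with limma-voom, and 0 to 1. Rrp6-delta by time (0 and 0): 1 and 1 with the larger pseudocount, 0 and 1 with no filter.

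The mSUT median minus the gene median depended on the pseudocount. For WT+FU at 40 min (0.0782) it was -0.157 with the larger and 0.393 with the smaller pseudocount, -0.00642 with no filter, 0.239 with median of ratios, and -0.16 to 0.344 leaving out 1 library. At 100 min (0.0728) it was -0.127 with the larger and 0.347 with the smaller pseudocount, -0.0469 with no filter, 0.211 with median of ratios, and -0.0392 to 0.138 leaving out 1 library. For rrp6-delta at 40 min (1.10) it was 0.167, 1.93, 0.887 and 1.27 under those 4 settings and 0.919 to 1.28 leaving out 1 library, and at 100 min (1.17) 0.18, 2.04, 0.881 and 1.32, and 1.03 to 1.27. For WT+FU against rrp6-delta it was -0.307 and -1.51 at 40 min with the larger and smaller pseudocount, and -0.28, -1.56 and, with no filter, -0.84 at 100 min, with -1.21 to -0.779 and -1.15 to -0.971 leaving out 1 library. For WT over time (-0.0725) it was 0.015, -0.175 and, with no filter, 0.00987, and -0.198 to 0.0541. The share of reads in WT+FU was -0.202 with only mSUTs that share no nucleotide on their strand. The causes were not tested. A low median of reads per mSUT limits all of these.

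The replicate block kept 462 of 469 calls for rrp6-delta at 40 min and 477 of 481 at 100 min. For WT+FU it added calls, as given above (43 against 21 and 21 against 9 higher). Same-numbered libraries correlated in their deviations from 0.226 to 0.778 among the WT and WT+FU groups and from -0.091 to 0.273 where an rrp6-delta group was involved. With 2 numbers per group, and labels that name no shared culture, batch or day, the numbers were not taken to pair libraries.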
